A study of Thermothelomyces thermophilus ATCC 42464 with 4 samples.

Results

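The genes described here are 6 genes of the unfolded protein response and of protein folding in the endoplasmic reticulum (ER) of the thermophilic fungus Myceliophthora thermophila, out of 8716 genes with a value in each library. They were taken by gene identifier, but earlier results of these data were known when they were chosen. They are Mthac-1 (Mycth_2310995) and 5 folding genes, grp78 (Mycth_2315513), lhs1 (Mycth_2312968), pdi1 (Mycth_2296005), mpd1 (Mycth_2295433) and cnx1 (Mycth_2295005). The names are those that the study gave to these identifiers, and the study had itself singled these genes out as lower in its mutant. Their direction in the comparison is therefore not independent evidence, and neither is any p-value given for it.

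The comparison was between 2 libraries labelled ΔMtTrh-1, with the genotype MtTrh-1 deletion, and 2 MtWT libraries, with the genotype WT, both in strain ATCC 42464. Mycelia of both strains grew at 45 °C in Vogel's salts with 2% glucose for 16 h and were then moved for 4 h to 2% Avicel, a crystalline cellulose on which the fungus secretes cellulases. The study made its deletion mutant by CRISPR-Cas9, and no label tells whether replicate libraries were made from independent cultures. The study's methods describe independent biological replicates, but more of them per strain than there are libraries here, so whether these libraries are among them is not known. The p-values below rest on the differences among these 4 libraries alone, and these may be technical.

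MtTrh-1 is the name used in the series title and labels, whereas the study calls its regulator MtTRC-1, a C2H2 zinc finger transcription factor encoded by Mycth_90344. That both names mean the same gene was inferred from the title and was not tested. Mycth_90344 had 215 and 223 FPKM (fragments per kilobase, scaled to the mapped fragments of the library, so a level per length) in the libraries labelled ΔMtTrh-1, against 13.3 and 14.5 FPKM in MtWT. The log2 fold change was thus 3.89 (SE 0.06, adjusted p = 5.1e-11, limma), so the gene whose deletion the label names was higher, not absent, in the libraries that carry the label. The cause was not tested. Every direction given below is that of the libraries labelled ΔMtTrh-1 relative to MtWT, and which strain they hold cannot be told from these values.

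The unfolded protein response adjusts the folding capacity of the ER to the load of proteins that enter it. In fungi the sensor kinase Ire1 detects unfolded proteins and removes an unconventional intron from the mRNA of HAC1, and the spliced mRNA is translated into a bZIP transcription factor that raises transcription of ER chaperones and folding enzymes. Secreted enzymes such as cellulases pass through this compartment, where Hsp70-type chaperones, disulfide isomerases and the lectin chaperone calnexin act on them. The files give 1 value per gene, so spliced and unspliced Mthac-1 cannot be told apart.

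Expression of all 6 genes was lower in the libraries labelled ΔMtTrh-1, where it stood at between 30.6% and 48.5% of their MtWT mean. Genes were called lower when the log2 fold change on log2(FPKM + 1) was below -1 and the adjusted p was under 0.05 (limma across the 7525 genes whose mean reached 1 FPKM). By this rule 6 of 6 genes were called lower, against 4.96% of all genes tested (373 of 7525), while 5.3% (399) were called higher and 10.3% were called in either direction. Each of the 6 genes also had both libraries labelled ΔMtTrh-1 below both MtWT libraries, as did 39.0% of all genes tested. The median log2 fold change was -1.36 over the 6 genes and 0.03 over all genes tested. With 2 libraries against 2, an exact permutation test on a single gene cannot go below p = 0.33.

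Mthac-1, which encodes the bZIP transcription factor of the response, had 85.5 and 89.2 FPKM in the libraries labelled ΔMtTrh-1, against 262 and 242 FPKM in MtWT. Neither strain's libraries came near the other's, and the mean was 87.3 ± 2.60 FPKM in the libraries labelled ΔMtTrh-1 and 252 ± 14.1 FPKM in MtWT (SD, n = 2 each), or 34.6% of MtWT. The log2 fold change was -1.52 (SE 0.06, 95% interval -1.64 to -1.39, adjusted p = 1.7e-08, limma). Of all genes tested, 2.31% had a more negative log2 fold change. By level, Mthac-1 ranked 1172 of 8716 genes in the libraries labelled ΔMtTrh-1 and 475 in MtWT.

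**Figure D1:**
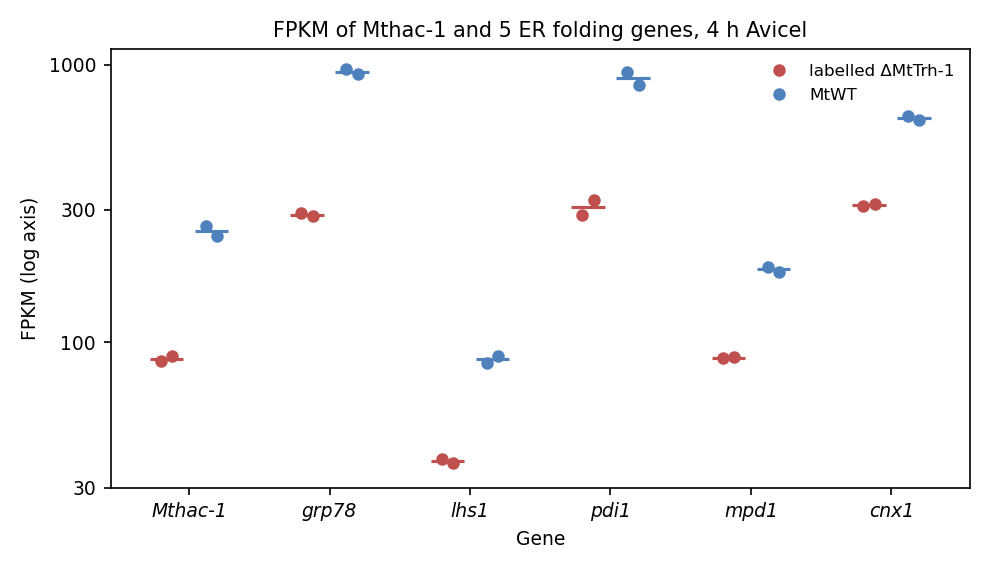
Level of each of the 6 genes in FPKM (log axis) in the 2 libraries labelled ΔMtTrh-1 (red) and the 2 MtWT libraries (blue), with each point a library and each line the mean of a strain. For every gene both red points lie below both blue points, with Mthac-1 at 85.5 and 89.2 FPKM in red and at 262 and 242 FPKM in blue.

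Of the Hsp70-type chaperones, grp78 encodes the ER lumenal Hsp70 known as BiP in animals and Kar2 in yeast, which binds unfolded chains and helps to draw them into the ER. It had 292 and 286 FPKM in the libraries labelled ΔMtTrh-1, against 964 and 922 FPKM in MtWT. This was the largest change among the 6 genes, to 30.6% of the MtWT mean, with a log2 fold change of -1.70 (SE 0.05, 95% interval -1.82 to -1.59, adjusted p = 3.6e-09, limma). Of all genes tested, 1.73% had a more negative log2 fold change.

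The gene lhs1, whose yeast counterpart is an ER Hsp70-family chaperone that works with Kar2, was the least abundant of the 6 in both strains. It had 38.1 and 36.8 FPKM in the libraries labelled ΔMtTrh-1, against 84.4 and 89.5 FPKM in MtWT. The strains did not overlap, and the log2 fold change was -1.19 (SE 0.06, 95% interval -1.32 to -1.07, adjusted p = 9.5e-08, limma). Both ER chaperones of the Hsp70 family were thus lower, grp78 to 30.6% and lhs1 to 43.1% of MtWT.

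Among the genes for disulfide bond formation, pdi1 encodes protein disulfide isomerase, which makes and rearranges disulfide bonds in secreted proteins. It had 288 and 326 FPKM in the libraries labelled ΔMtTrh-1, against 942 and 846 FPKM in MtWT. Its libraries differed more within a strain than those of the other 5 genes, by 0.18 on the log2 scale in the libraries labelled ΔMtTrh-1 and by 0.15 in MtWT. The closest libraries of the strains still stood 1.38 apart on that scale. The log2 fold change was -1.54 (SE 0.07, 95% interval -1.71 to -1.38, adjusted p = 1.0e-07, limma).

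The gene mpd1, whose yeast counterpart is a smaller member of the disulfide isomerase family, had 88.0 and 88.5 FPKM in the libraries labelled ΔMtTrh-1, against 187 and 179 FPKM in MtWT. It stood at 48.2% of MtWT with a log2 fold change of -1.04 (SE 0.05, adjusted p = 1.1e-07, limma). The lectin chaperone gene cnx1, for calnexin, which retains glycoproteins in the ER until they are folded, had 311 and 314 FPKM in the libraries labelled ΔMtTrh-1, against 654 and 634 FPKM in MtWT. It stood at 48.5% of MtWT, also with a log2 fold change of -1.04 (SE 0.05, adjusted p = 8.4e-08, limma). The 95% intervals of both genes reached -0.93 and so crossed the fold threshold of -1, and in a test of the fold change against that threshold (limma treat) neither passed, with an adjusted p of 1.0 for each. In the same test lhs1 had an adjusted p of 0.052, while grp78, pdi1 and Mthac-1 passed.

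**Figure D2:**
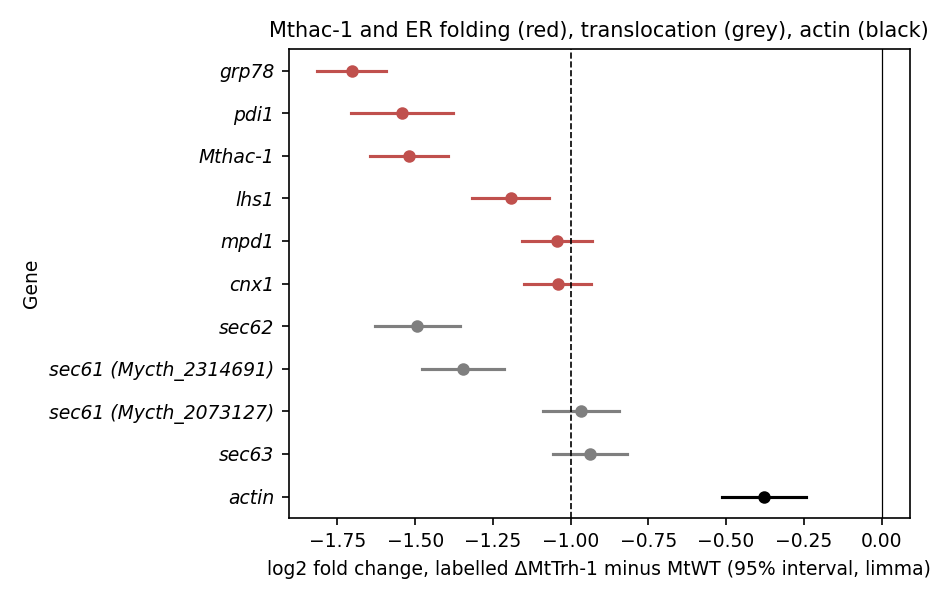
Log2 fold change, libraries labelled ΔMtTrh-1 minus MtWT, of the 6 genes (red), 4 translocation genes (grey) and actin (black), with each point the estimate and each bar its 95% interval from limma. The dashed line is the fold threshold of -1. The intervals of grp78, pdi1, Mthac-1 and lhs1 lie wholly below it, those of mpd1 and cnx1 cross it, and actin lies at -0.38.

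The size of each fall was set beside that of Mthac-1 by taking the ratio of each folding gene to Mthac-1 in the same library. For pdi1 the ratio was 3.36 and 3.65 in the libraries labelled ΔMtTrh-1, against 3.59 and 3.49 in MtWT, so the strains overlapped. The log2 difference between strains was -0.02, which is smaller than the pooled SD of 0.06 between libraries. The ratio to Mthac-1 overlapped for 88 of the 7524 other genes tested (1.17%). An overlap needs a fall close to that of Mthac-1, so this share mainly counts genes with a change of similar size. The libraries of pdi1 also differed more within a strain than those of the other folding genes, which makes an overlap easier. Whether pdi1 follows Mthac-1 more closely than other genes with a similar fall was not tested.

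For grp78 the ratio to Mthac-1 was 3.41 and 3.21 in the libraries labelled ΔMtTrh-1, against 3.68 and 3.81 in MtWT. The strains did not overlap, and grp78 fell by slightly more than Mthac-1, by a log2 difference of -0.19 (pooled SD 0.05). The other genes fell by less than Mthac-1. The ratio for cnx1 was 3.63 and 3.52 in the libraries labelled ΔMtTrh-1, against 2.49 and 2.62 in MtWT, a log2 difference of 0.48 (pooled SD 0.04).

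For mpd1 the ratio was 1.03 and 0.993 in the libraries labelled ΔMtTrh-1, against 0.714 and 0.738 in MtWT, likewise a log2 difference of 0.48. For lhs1 it was 0.445 and 0.413 in the libraries labelled ΔMtTrh-1, against 0.322 and 0.369 in MtWT, a log2 difference of 0.33 (pooled SD 0.11). Across the 5 comparisons with Mthac-1 the ratios of 4 genes did not overlap between strains, against 98.8% of all genes tested. The exact two-sided permutation p was 0.33 for those 4, the smallest this design allows, and 1.0 for pdi1. The Benjamini-Hochberg adjusted p over the 5 comparisons was 0.42 for the 4 genes. None of the differences from Mthac-1 thus passed a test, although 4 of them were larger than the spread between libraries.

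**Figure D3:**
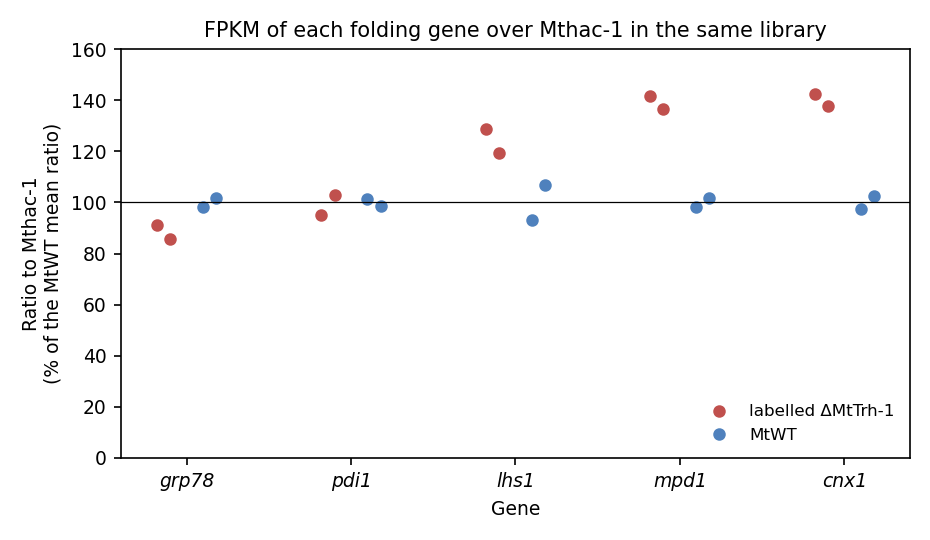
FPKM of each folding gene over FPKM of Mthac-1 in the same library, as a percentage of the MtWT mean ratio, with red points for the libraries labelled ΔMtTrh-1 and blue points for MtWT. Points of pdi1 overlap between strains, those of grp78 lie below the MtWT points, and those of lhs1, mpd1 and cnx1 lie above them.

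Sorted by size of change, the genes ran from grp78 through pdi1, Mthac-1, lhs1 and mpd1 to cnx1. The places of pdi1 and Mthac-1 could not be told apart, nor could those of mpd1 and cnx1, since their ratios overlapped between strains. The ratios of the other neighbours did not overlap, but that does not settle their places. Their exact two-sided permutation p was 0.33 each, the smallest this design allows. Neighbours in this order were compared by the ratio of one to the next, and the sorting itself fixes the sign of each difference. The ratio of mpd1 to cnx1 was 0.283 and 0.282 in the libraries labelled ΔMtTrh-1, against 0.287 and 0.282 in MtWT, so these genes changed by the same factor to within the spread of the libraries, with a log2 difference of -0.002. The ratio of grp78 to pdi1 was 1.01 and 0.878 in the libraries labelled ΔMtTrh-1, against 1.02 and 1.09 in MtWT, so the strains did not overlap, with a log2 difference of -0.16 and a pooled SD of 0.11. The ratio of lhs1 to mpd1 was 0.432 and 0.416 in the libraries labelled ΔMtTrh-1, against 0.451 and 0.500 in MtWT, a log2 difference of -0.15 (pooled SD 0.08).

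The order of the genes by level, in FPKM, also differed between strains. In the libraries labelled ΔMtTrh-1 the means were 312 FPKM for cnx1, 307 for pdi1 and 289 for grp78, and libraries of neighbouring genes in this order overlapped. Below them mpd1, at 88.3 FPKM, and Mthac-1, at 87.3 FPKM, also overlapped, and lhs1 was lowest at 37.4 FPKM. In MtWT grp78, at 943 FPKM, and pdi1, at 894 FPKM, overlapped at the top. They were followed without overlap by cnx1 at 644, Mthac-1 at 252, mpd1 at 183 and lhs1 at 86.9 FPKM. The calnexin gene thus stood above grp78 in both libraries labelled ΔMtTrh-1 and below it in both MtWT libraries.

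Summed over the 5 folding genes, the level was 1016 and 1051 FPKM in the libraries labelled ΔMtTrh-1, against 2832 and 2671 FPKM in MtWT, which is 37.6% of MtWT. Within this sum grp78 took 28.7% and 27.2% in the libraries labelled ΔMtTrh-1, against 34.0% and 34.5% in MtWT. The share of cnx1 was 30.2 ± 0.5% in the libraries labelled ΔMtTrh-1 and 23.4 ± 0.45% in MtWT (SD, n = 2 each). The share of mpd1 was 8.67% and 8.42% in the libraries labelled ΔMtTrh-1, against 6.62% and 6.70% in MtWT. The shares of pdi1 were 28.3% and 31.0% in the libraries labelled ΔMtTrh-1, against 33.3% and 31.7% in MtWT, and those of lhs1 were 3.75% and 3.51% in the libraries labelled ΔMtTrh-1, against 2.98% and 3.35% in MtWT. The 5 shares make up the whole sum in each library, so a fall in some forces a rise in others. They are therefore not separate observations, and their lack of overlap between strains was not set against other genes. For pdi1 (31.0% against 31.7%) and lhs1 (3.51% against 3.35%) the gap between the closest libraries was smaller than the difference within either strain. All 6 genes together took 0.151% and 0.157% of the summed FPKM of all genes in the libraries labelled ΔMtTrh-1, against 0.417% and 0.395% in MtWT.

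**Figure D4:**
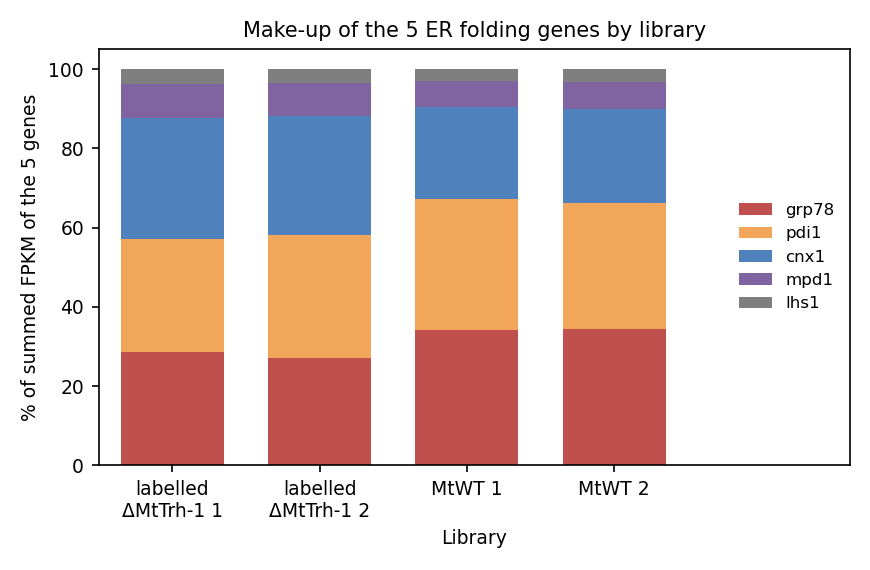
Share of each of the 5 folding genes in their summed FPKM (percent), with 1 stacked bar per library and the libraries labelled ΔMtTrh-1 on the left. In those libraries cnx1 takes 30.6% and 29.9% of the sum and grp78 28.7% and 27.2%. In MtWT cnx1 takes 23.1% and 23.7% and grp78 34.0% and 34.5%.

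Actin (Mycth_2314852), which the study used as the reference gene for its RT-qPCR, had 555 and 612 FPKM in the libraries labelled ΔMtTrh-1, against 776 and 741 FPKM in MtWT. Its log2 fold change of -0.38 (adjusted p = 0.00040, limma) did not reach the fold threshold. Set relative to actin, the log2 difference between strains was -1.14 for Mthac-1, -1.33 for grp78, -1.16 for pdi1, -0.82 for lhs1, -0.67 for mpd1 and -0.66 for cnx1. All 6 genes kept their direction, and the first 3 of these passed the fold threshold while lhs1, mpd1 and cnx1 did not. Scaling each library to actin moved the median log2 fold change of all genes to 0.38, and the calls across the table to 233 lower and 800 higher. Relative to that median, the log2 fold change of mpd1 was -1.04, that of cnx1 -1.04 and that of lhs1 -1.20. Taking off the median largely undoes the scaling, so these values had to lie near the unscaled ones and do not restore the calls.

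Before they are folded, secreted proteins cross the ER membrane through the Sec61 channel, with Sec62 and Sec63 as its partners. The study lists 4 genes of this machinery together with the folding genes, also as lower in its mutant, so that they too were no independent choice. Of these 4 genes, 2 were called lower and none higher, against 4.96% and 5.3% of all genes tested. The median log2 fold change of the 4 genes was -1.16. The gene sec62 (Mycth_2310016) had 42.0 and 46.4 FPKM in the libraries labelled ΔMtTrh-1, against 128 and 124 FPKM in MtWT, a log2 fold change of -1.49 (adjusted p = 3.8e-08, limma). The study names 2 genes as sec61 translocon subunits. The first, sec61 (Mycth_2314691), had 96.1 and 107 FPKM in the libraries labelled ΔMtTrh-1, against 262 and 256 FPKM in MtWT, a log2 fold change of -1.35. This call was lost on scaling to actin, where the log2 fold change was -0.97.

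The other 2 genes lay just short of the fold threshold. The second gene named sec61 (Mycth_2073127) is described as the Sec61-beta subunit. It had 117 and 111 FPKM in the libraries labelled ΔMtTrh-1, against 231 and 217 FPKM in MtWT, a log2 fold change of -0.97. It was called when the first library labelled ΔMtTrh-1 or the second MtWT library was left out, with a log2 fold change of -1.01 in each case. The partner gene sec63 (Mycth_2303597) had 48.8 and 49.6 FPKM in the libraries labelled ΔMtTrh-1, against 97.9 and 92.4 FPKM in MtWT, a log2 fold change of -0.94. With no fold threshold all 4 genes were lower at an adjusted p under 0.05 (limma), against 31.3% of all genes tested.

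Other chaperones were looked up by words in gene descriptions, which were held for 1118 of the genes tested and for none of the 6 genes. The descriptions of the chaperones found give no compartment, so some of them may act in the ER. Of 11 genes described as heat shock proteins, chaperonins or DnaJ proteins, none was called in either direction, against 10.3% of all genes tested. With so few genes, this count cannot be told apart from that share. On the adjusted p alone (limma, under 0.05), 6 of them were higher and 3 were lower, against 34.2% and 31.3% of all genes tested, and their median log2 fold change was 0.31. The most negative value was -0.78, for the low-level DnaJ gene Mycth_2114944, with 2.02 and 2.10 FPKM in the libraries labelled ΔMtTrh-1, against 4.29 and 4.20 FPKM in MtWT. At this low level its value depends on the pseudocount, and with 0.1 in place of 1 it was -1.01 and the gene was called.

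Among the 11 genes, the 3 described as Hsp70, the protein family of grp78 and lhs1, had a median log2 fold change of 0.04. Mycth_2086391 had 485 and 510 FPKM in the libraries labelled ΔMtTrh-1, against 351 and 328 FPKM in MtWT, a log2 fold change of 0.55. Mycth_112686, the most abundant of them, had 2658 and 2736 FPKM in the libraries labelled ΔMtTrh-1, against 2660 and 2580 FPKM in MtWT, and the strains overlapped. The third, Mycth_2089267, had a log2 fold change of -0.16. None of the 3, whose compartment is not given, moved as far as grp78 or lhs1. The 4 genes described as parts of the proteasome, which degrades proteins in the cytosol and nucleus, had a median log2 fold change of -0.09. None of the 4 was called, a count that cannot be told apart from the 10.3% of all genes tested called in either direction.

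**Figure D5:**
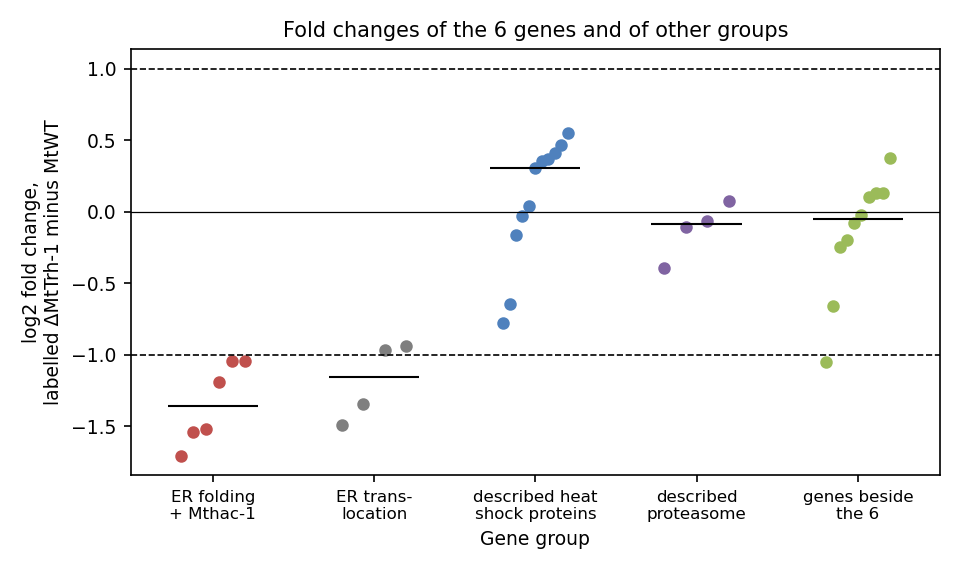
Log2 fold change, libraries labelled ΔMtTrh-1 minus MtWT, of Mthac-1 and the ER folding genes, the translocation genes, described heat shock proteins, described proteasome genes and the genes beside the 6 genes, with each point a gene and each black line the median of a group. Dashed lines mark the fold thresholds of -1 and 1. The 6 genes lie between -1.70 and -1.04 and the 11 heat shock genes between -0.78 and 0.55.

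A few described genes of other steps of the secretory pathway were picked after their values had been seen. Mycth_2088816, of the glycosyltransferase family GT66 to which the catalytic subunit of the oligosaccharyltransferase belongs, had 35.6 and 38.4 FPKM in the libraries labelled ΔMtTrh-1, against 73.9 and 68.9 FPKM in MtWT, a log2 fold change of -0.93. Mycth_2081821, which carries the GOLD domain found in cargo receptors of transport vesicles, had a log2 fold change of -0.61. Mycth_2089827, with the same domain, had -0.41, and Mycth_2069347 of family GT59 had -0.68. None of these 4 genes reached the fold threshold. They do not stand for the whole pathway, since Mycth_2078150, described as a signal recognition particle subunit, went the other way. It had 345 and 344 FPKM in the libraries labelled ΔMtTrh-1, against 261 and 305 FPKM in MtWT, a log2 fold change of 0.29.

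The genes on either side of each of the 6 genes were also compared, to see whether a change extended to the neighbourhood. Of 12 such neighbours 10 were tested, and 1 was called lower and none higher, against 4.96% and 5.3% of all genes tested. With so few genes, these counts cannot be told apart from those shares. This was Mycth_76126 beside cnx1, with 47.6 and 48.4 FPKM in the libraries labelled ΔMtTrh-1, against 99.4 and 101 FPKM in MtWT, a log2 fold change of -1.05 (adjusted p = 1.2e-07, limma). It thus stood where cnx1 itself stood, although the annotated spans of the genes do not overlap. Mycth_2295432 beside mpd1 had a log2 fold change of -0.66. Beside Mthac-1, Mycth_2310997 had 76.3 and 73.8 FPKM in the libraries labelled ΔMtTrh-1, against 82.0 and 76.8 FPKM in MtWT, a log2 fold change of -0.08 (adjusted p = 0.22, limma).

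The genes whose values over the 4 libraries lay nearest to those of Mthac-1 were ranked by Euclidean distance of log2(FPKM + 1), each less its MtWT mean, among 5179 genes whose mean reached 10 FPKM. This measure mostly reflects the size of the difference between strains. Of the genes named above, sec62 ranked 5, pdi1 8, sec61 (Mycth_2314691) 50, grp78 52, lhs1 110, mpd1 159, cnx1 161, the second sec61 gene (Mycth_2073127) 201 and sec63 216. The 5 nearest genes with a description were the beta-glucosidase Mycth_115968 at rank 6, the prolyl 4-hydroxylase alpha subunit Mycth_2051636 at 16, the N,O-diacetylmuramidase Mycth_107866 at 17, the GH61 glycoside hydrolase gene Mycth_110651 at 19 and the sugar transporter Mycth_114107 at 20. Beta-glucosidases and GH61 proteins act in the breakdown of cellulose. The beta-glucosidase gene had 234 and 235 FPKM in the libraries labelled ΔMtTrh-1, against 705 and 685 FPKM in MtWT, a log2 fold change of -1.56. The GH61 gene was the most abundant of the 5, with 1827 and 1803 FPKM in the libraries labelled ΔMtTrh-1, against 5123 and 5352 FPKM in MtWT.

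Across all genes tested, log2(FPKM + 1) correlated at 0.997 between the libraries of each strain and at 0.936 to 0.937 between strains, a correlation across genes, which are not independent replicates. The summed FPKM of a library lay between 725984 and 741923. The number of reads behind these values is unknown, and no counting error can be given. Since FPKM are relative to the rest of each library, a change in the total mRNA of a cell cannot be told apart from these values.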

How the data were processed

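The authors deposited 1 FPKM value per gene and library for 4 libraries. HISAT and Bowtie2 appear in the submitters' processing notes, with no version. The study's methods instead describe TopHat mapping to the predicted transcripts of strain ATCC 42464, HTSeq-count and RPKM, on 3 replicates per strain. The study's methods describe counts tested with DESeq2, and those counts were not analysed here. Which of these steps made the FPKM, and with which quantifier and build, is not given in the sources that were used. Depth is unknown, since FPKM rounded to 2 decimals did not resolve single reads.

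Because FPKM are not counts, limma 3.58.1 (R 4.3.3, intensity trend, no covariate) was run on log2(FPKM + 1) for the 7525 genes whose mean reached 1 FPKM, with Benjamini-Hochberg adjustment. A call needed a log2 fold change beyond 1 and an adjusted p under 0.05, the thresholds of the study. Ratios within libraries were compared with exact two-sided permutation tests (scipy 1.17.1), and figures were drawn with matplotlib 3.10.9. The fit was also run on simulated data, with independent noise of the same size for every gene and changes well beyond the fold threshold. That run does not show how the fit performs near the threshold, where mpd1 and cnx1 lie, or where replicates are technical. In all 15 alternatives were tried, covering the pseudocount, filters, scaling, test, replicate block and left-out libraries.

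The 6 genes and the lists were chosen with earlier results of these data known. Named were the 6 genes, the 4 translocation genes of the study, list members that passed the test or had the largest changes, and the 5 described genes nearest to Mthac-1. Lists by words used the descriptions in the held part of a supplementary table of the study (1490 genes of the file). The words for ER folding, N-glycosylation and ER-associated degradation matched no gene there, those for vesicle coats 1 gene (Mycth_2088125, log2 fold change -0.68) and those for translocation 2 genes, the second gene named sec61 and Mycth_2078150 (0.29), none of them called. Lists by protein signature or primer match were not run. Neighbours came from the RefSeq gene table of assembly ASM22609v1, in which 8681 of 8716 identifiers were found.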

Additional observations from a re-analysis of the deposited data

How the results depend on the processing

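Each of the 6 genes had a negative log2 fold change under each of the 15 alternatives, and the calls of Mthac-1, grp78 and pdi1 held in each. With actin scaling 3 of the 6 genes were called, and mpd1 (-0.67), cnx1 (-0.66) and lhs1 (-0.82) fell short of the fold threshold. In limma treat 3 were called as well, and mpd1 (-1.04), cnx1 (-1.04) and lhs1 (-1.19) were not. The calls across all genes were 240 lower and 253 higher with a pseudocount of 5, 233 lower and 800 higher with actin scaling, 2356 lower and 2570 higher with no fold threshold, and 240 lower and 233 higher in limma treat. A pseudocount of 5 shrinks the fold changes of low genes, and each of the other 3 settings changes the fold a gene must pass or the scale of the libraries.

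With each library left out in turn, 6 of 6 genes were called, and the log2 fold change lay between -1.58 and -1.46 for Mthac-1, between -1.74 and -1.67 for grp78 and between -1.63 and -1.45 for pdi1. The lone library of a strain is there assumed to vary like the other strain. The difference of pdi1 from Mthac-1 lay between -0.08 and 0.04 and so had no stable sign.

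Libraries of both strains share the numbers 1 and 2, but same-numbered libraries did not deviate together (r = -0.02 across 7525 genes). With the replicate block, 373 genes were called lower, 400 higher and 6 of the 6 genes lower, with a log2 fold change of -1.52 for Mthac-1. The adjusted p of Mthac-1 in this fit was 2.1e-138 (limma), a value that 4 libraries cannot bear out. These calls thus rest mainly on the fold threshold and are no separate test of the result.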
